A study of Mus musculus with 6 samples.

Results

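The genes Timd4, Lyve1, Folr2, Vsig4, Cbr2, Cd163, Mrc1 and Siglec1, which mark the macrophages that live in the heart, were followed in macrophages of healing infarcts with and without the integrin α5 chain. They were taken by symbol from the count table, which listed all 8 among its 54532 genes. All 8 were among the 14522 genes that passed the filter on low counts and were tested. The cells were isolated 7 days after permanent coronary occlusion from hearts of 12-week-old C57BL/6 mice, by magnetic removal of Ly6G-bearing neutrophils and then retention of CD11b-bearing cells, and their polyadenylated RNA was sequenced. The controls, named ITGA5 fl/fl, carry an intact Itga5 gene flanked by recombination sites. The Myα5KO mice carry the same floxed alleles and also LyzM-Cre, a recombinase expressed from the lysozyme M locus in macrophages, monocytes and granulocytes. There were 3 libraries per genotype. The controls carry no Cre, so the presence of Cre and the loss of Itga5 cannot be told apart, and the gate takes every CD11b-positive cell, so resident and recruited macrophages were measured together.

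The adult heart holds long-lived macrophages that were seeded before birth and renew themselves locally, and infarction adds many macrophages derived from blood monocytes. Resident cells are commonly told from recruited ones by TIMD4, LYVE1 and FOLR2, surface proteins that newly arrived monocytes largely lack, whereas CD163, MRC1, SIGLEC1, CBR2 and VSIG4 are shared more widely among tissue macrophages and some can be gained by recruited cells as they mature. In the study's single-cell data from reporter mice, the main resident cluster was high in Timd4, Lyve1 and Siglec1. It formed a much smaller share of the cells 7 days after infarction than in control hearts. In a bulk library, fewer cells of a type and less RNA per cell cannot be told apart.

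One marker changed. Vsig4, which encodes the complement receptor of the immunoglobulin superfamily (CRIg) that captures C3b-coated particles, was lower in Myα5KO macrophages, at 57.9% of the control level. Lyve1, Folr2, Cbr2, Cd163 and Mrc1 had overlapping libraries and log2 fold changes between -0.12 and 0.20, and Timd4 and Siglec1 lay farther out, at -0.40 and 0.32, without being called. A gene is called changed at an adjusted p of 0.05 or less in the quasi-likelihood test of edgeR, adjusted over all tested genes. By this rule 0 of 8 markers were higher and 1 of 8 was lower, beside 8.75% of all tested genes changed in either direction, 3.56% higher and 5.19% lower. The edgeR test gave an unadjusted p under 0.05 to 3 of the 8, Vsig4, Siglec1 and Timd4. The median log2 fold change of the markers was 0.03 and that of all tested genes 0.01, while the medians of the absolute change were 0.16 and 0.15.

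For Vsig4 and Timd4, the markers with the largest decreases, the 250 bases before the transcription start are shown from RefSeq (GRCm38.p6), which gave a promoter for 6 of the 8 markers. The Vsig4 stretch lies on the minus strand at chrX:96293439-96293688 and the Timd4 stretch on the plus strand at chr11:46810549-46810798. Capitals mark matches, on either strand, to GAGGAA, the core bound by the myeloid factor PU.1, and to TGCTGA, a recognition motif of MAF factors.
Vsig4: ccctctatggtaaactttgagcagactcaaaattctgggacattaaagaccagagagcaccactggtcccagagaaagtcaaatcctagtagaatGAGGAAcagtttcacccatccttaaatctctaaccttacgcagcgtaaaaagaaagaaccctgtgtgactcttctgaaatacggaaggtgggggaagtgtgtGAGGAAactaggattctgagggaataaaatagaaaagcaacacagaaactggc
Timd4: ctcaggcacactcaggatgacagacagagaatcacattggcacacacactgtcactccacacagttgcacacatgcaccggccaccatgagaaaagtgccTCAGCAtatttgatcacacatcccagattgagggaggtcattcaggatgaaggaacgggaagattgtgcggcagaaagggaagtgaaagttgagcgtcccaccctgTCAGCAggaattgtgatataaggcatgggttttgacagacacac
Vsig4 held GAGGAA at 155 and 53 bases before the start, and Timd4 held the reverse complement of TGCTGA at 150 and 44 bases. Among 32851 mouse promoters of this length 23.3% held GAGGAA and 16.1% held TGCTGA. Of the other markers with an entry, Mrc1 held 3 GAGGAA matches, Cbr2 held 1, each of the Folr2 starts had 1 TGCTGA match and Cd163 had none of either. The interferon-stimulated response element, searched on both strands and held by 2.98% of promoters, was found in none of these 6. Lyve1 and Siglec1 had no promoter entry, so neither was searched for any of these motifs. These matches describe the letters only.

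The markers covered a wide range of abundance. On the scale of the deposited FPKM, which are counts per gene length and library, Mrc1 had a level of 149 ± 5.35 in ITGA5 fl/fl macrophages (SD, n = 3), above 97.6% of tested genes. Cbr2 followed at 81.6 ± 14.4 FPKM. Siglec1 (25.8), Folr2 (24.4), Lyve1 (23.3), Cd163 (17.4) and Vsig4 (14.1) came next, and each of these means had control libraries that overlapped those of its neighbour in the order. Timd4 was the least abundant at 4.74 ± 0.80 FPKM, and none of its libraries reached those of Vsig4. The order of the means was the same in Myα5KO macrophages, although there Vsig4 (8.16 ± 0.76 FPKM) had separated from Cd163 (19.8 ± 2.80 FPKM) and Siglec1 (32.1 ± 4.95 FPKM) from Folr2 (24.9 ± 1.88 FPKM). Library-scaled counts (CPM) divided by gene length gave the same order in the controls, but they rest on the same reads and are no separate check.

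**Figure D1:**
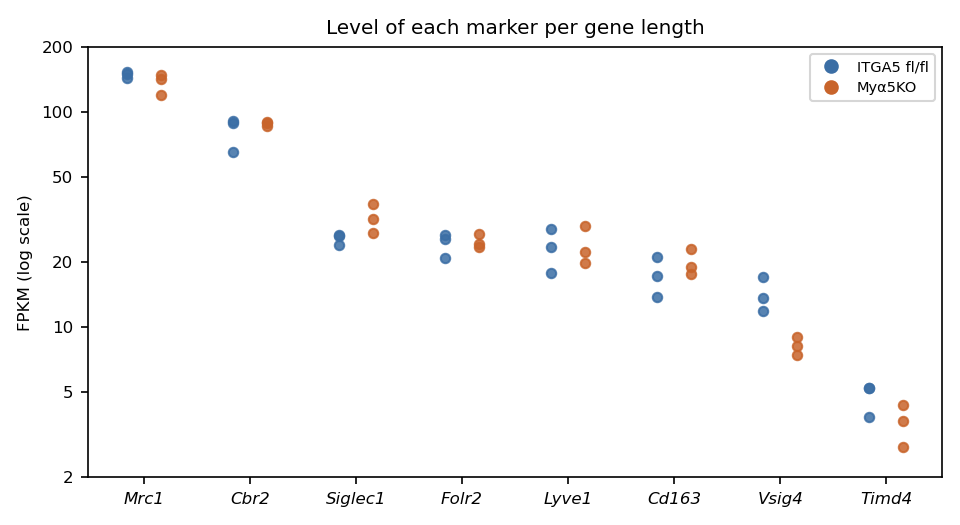
FPKM of the 8 markers on a log axis, with 1 point per library, 3 for ITGA5 fl/fl and 3 for Myα5KO. Mrc1 and Cbr2 sit above the rest and Timd4 below; of the 8 markers only Vsig4 has all Myα5KO points below all control points.

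Among the receptors for endocytosis and scavenging, Mrc1 encodes the mannose receptor CD206, which binds glycoproteins and collagen. Mrc1 is ENSMUSG00000026712 on GRCm38 chromosome 2, 14229392 to 14332057, plus strand, protein coding. It had 914, 962 and 982 CPM in ITGA5 fl/fl replicates 1 to 3 and 948, 909 and 778 CPM in Myα5KO replicates 1 to 3, where CPM are counts scaled with the trimmed mean of M-values (TMM) factors. Myα5KO replicates 2 and 3 lay below all controls and replicate 1 among them. Mrc1 had a log2 fold change of -0.12 (SE 0.08, 95% interval -0.29 to 0.06, edgeR adjusted p 0.418), so that a fall to less than 0.82 of the control level lies outside the interval. These intervals are not adjusted for the number of genes.

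Cd163 encodes the receptor that clears complexes of hemoglobin and haptoglobin (ENSMUSG00000008845, chromosome 6, 124304656 to 124330527, plus strand, protein coding). Its level was 75.5, 94.6 and 115.5 CPM in the controls and 125.7, 104.4 and 97.5 CPM in Myα5KO. The highest library was Myα5KO replicate 1 and the lowest ITGA5 fl/fl replicate 1, and the other 4 were interleaved. Its log2 fold change was 0.20 (SE 0.13, 95% interval -0.08 to 0.47, edgeR adjusted p 0.388).

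Lyve1, a hyaluronan receptor that marks macrophages along vessels and also lymphatic endothelium (ENSMUSG00000030787, chromosome 7, 110850607 to 110863239, minus strand, protein coding), had the widest relative spread of the markers in the controls. It had 52.2, 69.2 and 83.7 CPM in the controls and 86.5, 65.2 and 59.1 CPM in Myα5KO, a coefficient of variation of 23.1% and 20.4%, against medians of 8.51% and 9.22% over all tested genes; in Myα5KO Timd4 varied slightly more (21.2%). Each group spanned nearly the same range. Between the groups, the log2 fold change of Lyve1 was 0.04 (SE 0.15, 95% interval -0.29 to 0.36, edgeR adjusted p 0.918), an interval that leaves room for a level from 0.82 to 1.29 times the control. Among genes of lymphatic endothelium, Prox1, its defining transcription factor, had 0.80 to 1.58 CPM, Flt4 had 5.86 to 7.69 CPM and Ccl21a, annotated on an unplaced scaffold, was listed at 0 counts in every library, whereas Pdpn, which macrophages also express, had 136 to 262 CPM. The part of lymphatic cells in the Lyve1 values was not tested.

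Folr2 encodes folate receptor β (ENSMUSG00000032725, chromosome 7, 101839988 to 101857194, minus strand, protein coding). Its libraries held 32.4, 41.7 and 39.8 CPM in the controls and 41.9, 36.5 and 38.1 CPM in Myα5KO, and all but ITGA5 fl/fl replicate 1 fell in a narrow band. Folr2 had a log2 fold change of 0.03 (SE 0.10, 95% interval -0.18 to 0.24, edgeR adjusted p 0.886). The antisense gene Gm10602 shares 52.6% of the 50-base words of the Folr2 transcripts, and because strand handling in the counting is not stated, the 2 genes cannot be told apart there. Gm10602 itself had only 6 to 38 counts per library, beside 483 or more for Folr2.

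Of the markers that act in uptake of particles and cells, Vsig4 (ENSMUSG00000044206, chromosome X, 96247203 to 96293438, minus strand, protein coding) had 262, 346 and 445 counts in the controls and 227, 249 and 213 in Myα5KO. On the CPM scale these were 17.6, 20.3 and 25.3 against 12.1, 13.3 and 11.2, with means of 21.1 ± 3.94 and 12.2 ± 1.07 CPM (SD, n = 3 each). Every Myα5KO library lay below every control library. The log2 fold change was -0.79 (SE 0.13, 95% interval -1.07 to -0.51, edgeR adjusted p 0.00284). Of the 754 genes called lower, 120 had a larger decrease. Vsig4 was called lower under all 18 alternatives tried, with log2 fold changes from -0.90 to -0.64 and adjusted p from 9.62e-10 to 0.0367. The lowest came from the edgeR fit with no count filter, whose p-values use no spread of single genes. The next lowest was 1.78e-05, from DESeq2.

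Timd4 encodes TIM-4, the phosphatidylserine receptor with which resident macrophages tether dying cells (ENSMUSG00000055546, chromosome 11, 46810800 to 46844332, plus strand, protein coding). Its level was 8.31, 11.4 and 11.3 CPM in the controls and 9.48, 7.97 and 6.15 CPM in Myα5KO. Replicates 2 and 3 of Myα5KO lay below all controls, and replicate 1 lay above ITGA5 fl/fl replicate 1. The log2 fold change of Timd4 was -0.40 (SE 0.17, 95% interval -0.76 to -0.04), and it was not called (edgeR unadjusted p 0.0328, adjusted p 0.17). At a lowest count of 117, counting error alone amounts to 9.25% of the value, the most of any marker.

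Siglec1 encodes sialoadhesin (CD169), a lectin for sialylated particles that is induced by type I interferon (ENSMUSG00000027322, chromosome 2, 131069220 to 131086765, minus strand, protein coding). It had 172.9, 192.8 and 190.2 CPM in the controls and 266.1, 228.9 and 198.3 CPM in Myα5KO. All Myα5KO libraries lay above all controls, replicate 3 by a narrow margin. The log2 fold change of Siglec1 was 0.32 (SE 0.09, 95% interval 0.12 to 0.52), at an edgeR adjusted p of 0.0514, just outside the threshold (unadjusted p 0.00459). Siglec1 was called higher in 4 of 18 alternatives: by DESeq2 (adjusted p 0.0212, 9.24% of genes called), under library-size scaling (0.0163, 11.9%), with no count filter (0.000539, 6.28%, p-values that use no spread of single genes) and without Myα5KO replicate 3 (0.0074, 7.1%). The highest adjusted p over its edgeR, limma and DESeq2 alternatives was 0.175. Siglec1 and Vsig4 were the 2 of 8 markers without overlap between the groups, beside 28.6% of all tested genes.

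Cbr2, a mitochondrial carbonyl reductase and the one enzyme among the markers (ENSMUSG00000025150, chromosome 11, 120729489 to 120732114, minus strand, protein coding), had 86.4, 118.9 and 120.9 CPM in the controls and 113.9, 117.8 and 121.2 CPM in Myα5KO. All libraries but ITGA5 fl/fl replicate 1 lay close together. The log2 fold change of Cbr2 was 0.11 (SE 0.10, 95% interval -0.11 to 0.33, edgeR adjusted p 0.561).

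**Figure D2:**
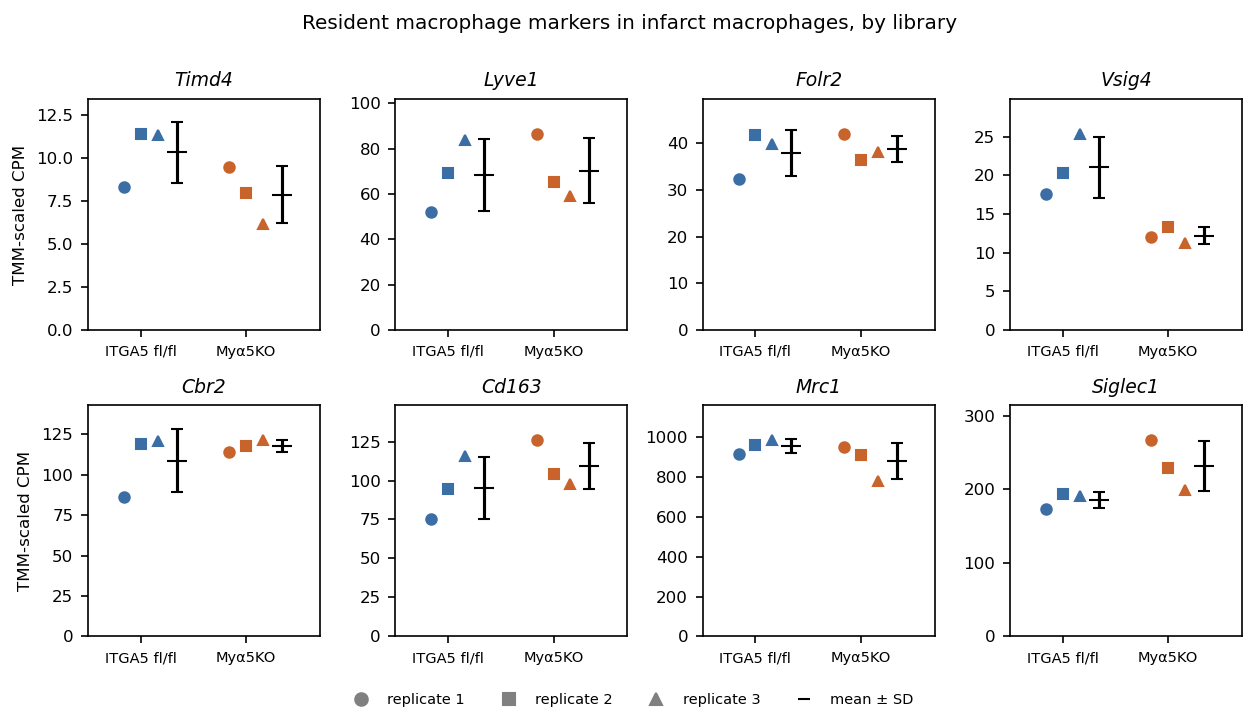
TMM-scaled CPM of each marker, with 1 point per library (circle, square and triangle for replicates 1, 2 and 3) and the mean ± SD of each group; axes start at 0. Vsig4 separates downward (17.6 to 25.3 against 11.2 to 13.3) and Siglec1 upward (172.9 to 192.8 against 198.3 to 266.1), and the groups overlap for the other 6.

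**Figure D3:**
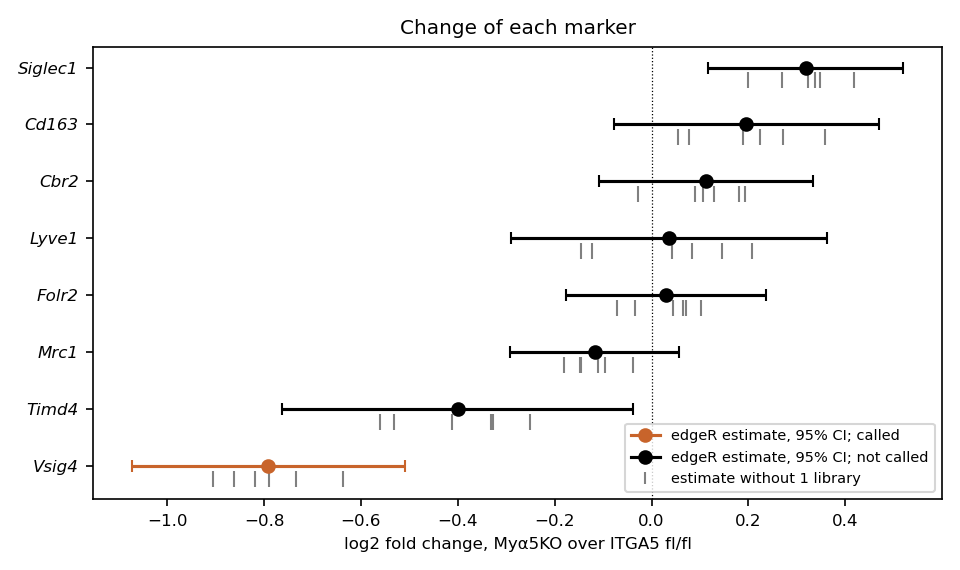
Log2 fold change of each marker, Myα5KO over ITGA5 fl/fl, with its 95% interval from edgeR (points and bars) and the estimates with 1 library left out (grey ticks). Vsig4 stays between -0.90 and -0.64 whichever library is left out, and the ticks of Lyve1, Folr2 and Cbr2 fall on both sides of 0.

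The spread within groups was shared by the markers. ITGA5 fl/fl replicate 1 was the lowest control library for all 8 of 8 markers, as it was for 35.9% of all tested genes. Its distance below the mean log2 CPM of the other 2 controls ran from 1.06-fold for Mrc1 and 1.11-fold for Siglec1 to 1.46-fold for Lyve1. In the other genotype, Myα5KO replicate 1 was the highest for 6 of 8 markers (33.5% of all genes) and replicate 3 the lowest for 6 of 8 (36.2%). Without ITGA5 fl/fl replicate 1 the log2 fold changes of Lyve1, Folr2 and Cbr2 turned to -0.12, -0.071 and -0.029, and without Myα5KO replicate 1 those of Lyve1 and Folr2 turned to -0.15 and -0.033, none of them called. The direction of these 3 genes therefore rests on single libraries. The sum over the 8 markers, most of which is Mrc1, was 1359 to 1569 CPM in the controls and 1309 to 1603 CPM in Myα5KO.

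**Figure D4:**
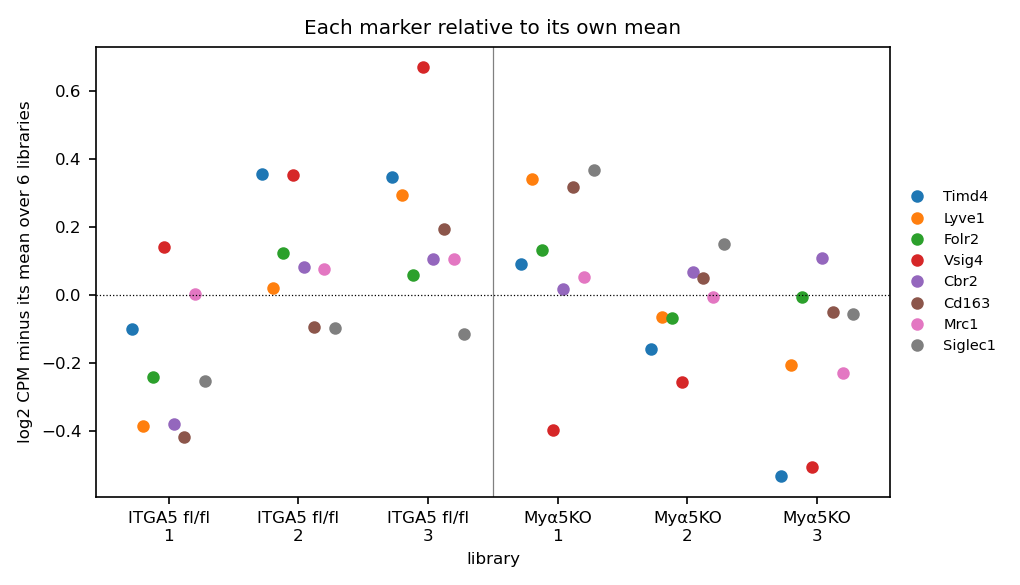
Log2 CPM of each marker minus its mean over the 6 libraries, by library, with 1 point per marker; points are offset sideways for legibility. All 8 markers are at their control minimum in ITGA5 fl/fl replicate 1, and Vsig4 is below its mean in all 3 Myα5KO libraries.

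Ratios within a library remove what raises or lowers all markers together. The log2 ratio of Vsig4 to the geometric mean of the other 7 markers ran from -2.22 to -1.98 in the controls and from -3.09 to -2.76 in Myα5KO, a difference of -0.81 between the means. The Timd4 ratio, -3.34 to -3.18 in the controls and -3.86 to -3.49 in Myα5KO, also separated. The ratios of Cd163 and Siglec1 separated in the other direction, by 0.32 and 0.43, and those of Lyve1, Folr2, Cbr2 and Mrc1 overlapped. Each reference contains the other markers, Vsig4 among them, so these ratios are not independent of each other. The ratio of Timd4 to Lyve1, both used to identify resident cells, separated too. Its log2 values were -2.89 to -2.60 in the controls and -3.26 to -3.03 in Myα5KO. The ratios of Vsig4 and Cd163 to Lyve1 and of Vsig4 and Siglec1 to Mrc1 also separated. Those of Vsig4 to Timd4, of Siglec1 to Lyve1, and of Folr2, Lyve1 and Cd163 to Mrc1 overlapped. How often ratios of other gene pairs separate was not computed. None of these ratios was tested.

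Among the markers themselves the profiles over the 6 libraries were most alike for Lyve1 and Cd163 (root-mean-square difference of centred log2 CPM 0.10) and least alike for Vsig4 and Siglec1 (0.57). Among 9311 other well-counted genes, the one closest to Vsig4 was Hmox1, heme oxygenase 1, at a difference of 0.04. Hmox1 had 1868, 2166 and 2640 CPM in the controls and 1240, 1470 and 1232 CPM in Myα5KO, and its log2 fold change was -0.76 (adjusted p 0.00143 in edgeR). The genes closest to the other markers were Adgb for Timd4 (0.09), Brca1 for Lyve1 (0.09), Aacs for Folr2 (0.04), Med28 for Cbr2 (0.02), Iba57 for Cd163 (0.05), Tram2 for Mrc1 (0.03) and Anln for Siglec1 (0.04), none of which was called. With so many candidates and 6 libraries, a close profile is a description only.

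The markers were then set beside other genes of resident macrophages and of the cells that could share the gate. Of 25 further genes associated with resident macrophages, 3 were higher and 5 lower, with a median log2 fold change of -0.20 and 20 of 25 estimates below 0. The higher genes were Hpgd (0.68), Maf (0.39) and Clec10a (0.37), and among the 5 genes called lower the largest decreases were those of Ednrb (-0.69), Ltc4s (-0.56), Fgfr1 (-0.52) and C4b (-0.43). The groups overlapped for Ednrb, at 67.2 CPM in ITGA5 fl/fl replicate 1 and 71.4 CPM in Myα5KO replicate 1. Hpgd inactivates prostaglandin E2, Maf is a transcription factor of resident macrophages, and Ednrb is an endothelin receptor. This count depended on single libraries. It was 10, 3 and 5 without ITGA5 fl/fl replicate 1, 2 or 3, and 8, 5 and 7 without Myα5KO replicate 1, 2 or 3. All genes changed, 1271 with every library, also fell in these fits. They numbered 918, 723 and 616 without ITGA5 fl/fl replicate 1, 2 or 3, and 1091, 819 and 1052 without Myα5KO replicate 1, 2 or 3.

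Among relatives and partners of the 8 marker proteins, 24 of 28 were tested, of which 1 was higher and 3 were lower (median 0.08). Siglecg, an inhibitory lectin of the Siglec1 family, was higher (0.51), while Hmox1, which degrades the heme that CD163 delivers, Cd5l (-0.60), a scavenger receptor relative of Cd163, and Cd44 (-0.38), like Lyve1 a hyaluronan receptor, were lower. For Cd5l the groups overlapped, at 68.8 CPM in ITGA5 fl/fl replicate 1 and 77.9 CPM in Myα5KO replicate 1. Of 19 regulators of resident macrophages, 4 were higher, namely Nr4a1 (0.42), Klf4 (0.39), Maf and Nr1h3 (0.31), and 2 were lower, Spic (-0.50) and Csf2rb (-0.43), with a median of 0.05. Nr1h3 encodes LXRα, and SPIC is the factor of macrophages that recycle heme iron.

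Genes of pathways known to induce some of the markers were examined next. Of 18 interferon response genes 13 were higher and 0 lower (median 0.44), led by Ifi44 (0.72), Oasl2 (0.60), Ifit2 (0.56) and Ifit3 (0.55), and their sum was 757 to 903 CPM in the controls and 1045 to 1132 CPM in Myα5KO. Of 14 genes of the IL-10 and glucocorticoid responses, pathways known to induce Cd163 and Mrc1, 3 were lower, Il10 itself (-1.12), Bcl3 (-0.31) and Stat3 (-0.27), and 2 higher, Sesn1 (0.79) and Dusp1 (0.27), with a median of -0.02. Of 13 genes of alternative activation, for which Mrc1 is a classical marker, Arg1 (-1.60) and Tgm2 (-0.60) were lower and Clec10a higher, with a median of 0.04. Arg1 had 101, 592 and 291 CPM in the controls and 127, 102 and 95.1 CPM in Myα5KO, so its decrease rests on ITGA5 fl/fl replicates 2 and 3. The part of these pathways in the values of Siglec1, Cd163 and Mrc1 was not tested.

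Of 18 markers of macrophages in general 2 were higher, Cx3cr1 (0.44) and Fcgr1 (0.27), and 0 lower, with a median of -0.03 and sums of 35673 to 37271 CPM in the controls and 35321 to 35827 CPM in Myα5KO. Of 17 genes of recruited monocytes 6 were higher and 1 lower (median 0.31). Ly6c2 (0.71), Ms4a4c (0.58) and Ccr2 (0.58) led the increases, and Fn1, which gave 40.7% to 69.7% of the list's sum, fell (-0.73). Fn1 had 2446, 4042 and 3653 CPM in the controls and 2442, 2061 and 1593 CPM in Myα5KO. ITGA5 fl/fl replicate 1 thus lay close to Myα5KO replicate 1. The summed level of this list was 4103 to 5797 CPM in the controls and 3914 to 4498 CPM in Myα5KO, and without Fn1, a sum taken after its values were seen, 1601 to 1755 and 2056 to 2321 CPM. Most of the sum without Fn1 was Nr4a1, which is also on the list of regulators. Nr4a1 had 945 to 1091 CPM in the controls and 1252 to 1523 CPM in Myα5KO.

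Vsig4 and Timd4 are also expressed by macrophages of the body cavities. Of 13 tested genes of those cells, out of 14 listed, 8 were lower and 0 higher (median -0.61), among them Serpinb2 (-2.45), Alox15 (-2.24), Prg4 (-2.24) and Naip1 (-1.27), and the sum of the list was 838 to 1048 CPM in the controls and 684 to 713 CPM in Myα5KO. Gata6, the transcription factor that defines those macrophages, had 3.35 to 4.29 CPM in the controls and 3.03 to 3.37 CPM in Myα5KO and was not called (-0.19, edgeR adjusted p 0.575). ITGA5 fl/fl replicate 1 had Serpinb2, Alox15 and Prg4 at 14.3, 8.18 and 19.97 CPM, far below the other 2 controls. The highest Myα5KO library of each had 11.8, 7.77 and 12.0 CPM. The Vsig4 level of ITGA5 fl/fl replicate 1 was the lowest of the controls (17.6 CPM) and above the highest Myα5KO library (13.3 CPM). The part of cavity macrophages in the Vsig4 and Timd4 values was not tested.

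**Figure D5:**
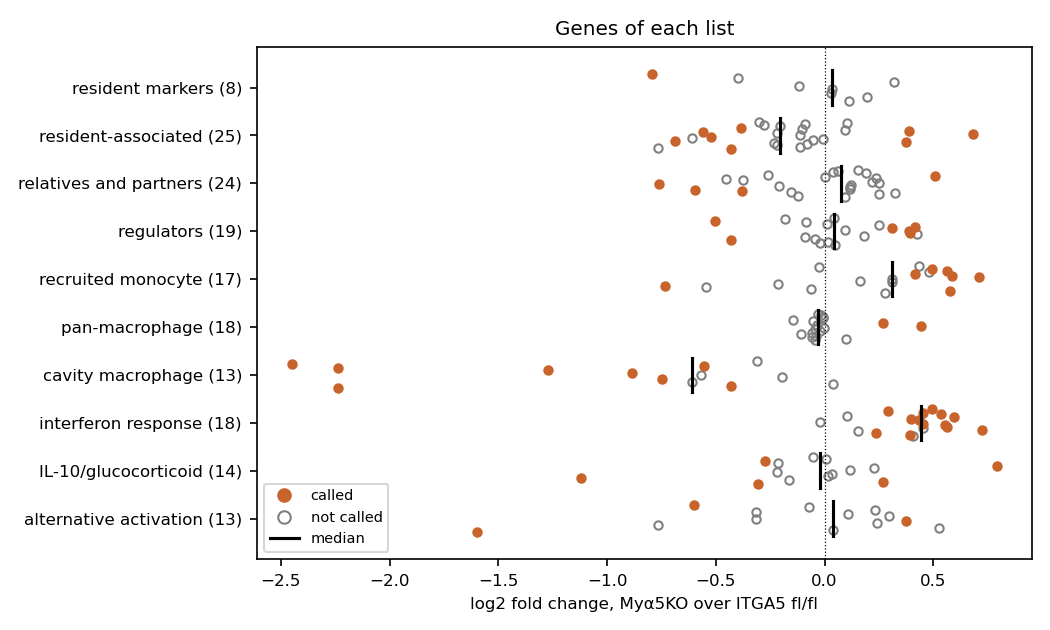
Log2 fold change, Myα5KO over ITGA5 fl/fl, of every tested gene in 10 lists, with the number tested in parentheses; filled points were called and black bars are list medians. The resident markers centre on 0.03 with Vsig4 as the 1 called gene, whereas 13 of 18 interferon genes were called higher and 8 of 13 cavity macrophage genes lower.

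Transcripts of other cells were present, and some moved with the genotype. Neutrophil genes were higher for 6 of 9 tested of 10, Ltf, Camp, Ngp and Lcn2 most (2.05, 1.89, 1.85 and 1.61), at sums of 190 to 229 CPM in the controls and 249 to 383 CPM in Myα5KO. Of 6 B cell genes 2 were higher, among them Cd79b (0.57), with sums of 75.9 to 115 and 113 to 184 CPM. Of 8 dendritic cell genes Cd209a was higher (0.57), with sums over the list of 95.04 to 125 and 116 to 128 CPM. Of 9 blood endothelial genes Kdr was higher (0.26), with list sums of 459 to 479 and 468 to 564 CPM. Of 8 T and NK cell genes 4 were tested, and edgeR called 0 (3 at an unadjusted p under 0.05) and DESeq2 0, at sums of 11.5 to 16.3 and 17.7 to 21.5 CPM; the most abundant, Gzma and Nkg7, had log2 fold changes of 0.47 and 0.66. Of 5 lymphatic endothelial genes tested of 6, Pdpn was lower (-0.54), with list sums of 227 to 269 and 146 to 186 CPM. Postn was the 1 fibroblast gene of 10 that was called lower (-0.40), although all 10 estimates lay below 0 (median -0.29). The sums over the 10 were 1706 to 2001 and 1275 to 1664 CPM. Ttn (-1.30), Actc1 (-1.03) and Tnnt2 (-0.69) were lower among 8 cardiomyocyte genes, with list sums of 22.5 to 24.8 and 14.4 to 17.6 CPM. The part of these cells in the marker values was not tested.

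The libraries held 15424451 to 18419287 counts, and no 2 of a group agreed within sampling noise. Itga5 was at 8.02% of the control level in Myα5KO, in the direction the labels give, and Lyz2, into which Cre is inserted, at 53% of it. The lists of other cell types overlap with what infarct macrophages themselves express, so their sums are no cell shares.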

How the data were processed

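Adapter-containing and low-quality reads were removed, the rest aligned with TopHat2 2.0.9 to the mouse genome (mm10, GRCm38.p6) and reads per gene counted with HTSeq 0.6.1, per the labels and the study's methods. The authors deposited whole-number counts per gene, without normalization, and FPKM for the same genes. The handling of strand and of multi-mapped reads is not given in the sources used here. Groups and replicate numbers came from sample titles. Per the study's methods, hearts were digested mouse by mouse; the labels do not tie libraries to animals.

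The quasi-likelihood test of edgeR 4.0.16 (R 4.3.3) was applied to all genes, with TMM scaling and its expression filter (minimum count 10, minimum total 15). P-values are two-sided and adjusted by Benjamini-Hochberg over 14522 genes, with calls at 0.05. Fold changes set Myα5KO over ITGA5 fl/fl. The alternatives were DESeq2 1.42.0, limma 3.58.1 (voom on counts, and trend on log2 FPKM with a pseudocount of 1 or 0.1, where 3 libraries reached an FPKM of 1), scaling by median ratio, upper quartile, library size or pan-macrophage genes, no count filter, a minimum of 10 counts in every library, a block for the replicate number, omission of each library, and an adjusted p of 0.01. Scripts were tested on simulated data.

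The members and lists were chosen with earlier results of these data known. Named were the 8 markers, Itga5 and Lyz2, up to 4 called genes per direction of each list by size of change (for a list with none called, up to 2 by level), and the gene with the closest profile to each marker, from genes with a mean of at least 100 counts; Gata6, Prox1, Flt4 and Ccl21a were named after their values were seen. Some listed genes that this rule would name are not reported here. Sequence overlap used GENCODE M21 transcripts (GRCm38). Intervals cover the spread between libraries, and counting errors cover counting only, since reads carry no molecular identifiers.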

Additional observations from a re-analysis of the deposited data

How the results depend on the processing

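Of 144 combinations of 8 markers and 18 alternatives, 135 kept the direction and the side of the threshold. Vsig4 kept both under all 18. The number of markers changed rose from 1 to 2, and the number higher from 0 to 1, with DESeq2, library-size scaling, no count filter and without Myα5KO replicate 3, each time through Siglec1, and the cause was not tested. The fit with no count filter had an infinite prior, so its p-values use no spread of single genes. With 1 library left out the number of markers changed ran from 1 to 2, the number higher from 0 to 1, resident-associated genes changed from 3 to 10 and all genes changed from 616 to 1091. Lyve1 reversed to -0.12 without ITGA5 fl/fl replicate 1 and -0.15 without Myα5KO replicate 1, Folr2 to -0.071 and -0.033 without the same libraries, and Cbr2 to -0.029 without ITGA5 fl/fl replicate 1; over all libraries left out the ranges were -0.15 to 0.21, -0.071 to 0.10 and -0.029 to 0.19. The resident-associated genes changed fell from 8 to 2 on log2(FPKM + 1) and on log2(FPKM + 0.1) and to 3 at an adjusted p of 0.01, and all genes changed from 1271 to 472, 448 and 470. Under library-size scaling 70.1% of 1730 called genes were higher in Myα5KO, beside 40.7% under TMM.

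Replicate numbers did not pair the libraries: deviations of same-numbered libraries from their group means correlated at 0.05, -0.06 and 0.04 across genes, and not every library correlated best with its own number. With the replicate number as a block, 1 marker was changed, 1 lower and 0 higher, 8 resident-associated genes and 1181 genes in all were changed, and Vsig4 had a log2 fold change of -0.78; the block changed no call among the markers. Depth limited Timd4 most, with 117 counts in its lowest library. With 3 libraries per group no single library could be tested as standing apart.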
